A study of Drosophila melanogaster with 16 samples.

Results

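Peroxisomal fatty acid oxidation was followed through the transcripts of 7 enzyme genes in the larval midgut of Drosophila melanogaster. The genes are the acyl-CoA oxidases Acox57D-p, Acox57D-d and CG17544, the multifunctional enzyme Mfe2, the thiolase ScpX, the racemase Amacr and the lyase Hacl. They were chosen by name, with earlier results of these data known, and all 7 were found among the 17873 genes counted. The shares of all genes given beside counts of called genes are therefore a description and not a test. RNA was sequenced from pooled midguts of 4 groups with 4 biological replicates each, 16 libraries in all. Mothers carrying mex-GAL4, which drives expression in enterocytes (ECs), were crossed either to males with a UAS-Hnf4 RNAi transgene or to attP40 males without a hairpin, and the progeny are called Hnf4i and control. Larvae ate yeast only at 25 °C and were dissected on day 3, in late L2 (30 midguts per library), or on day 4, in early L3 (10 midguts per library). The number of midguts pooled therefore differs with age and cannot be told apart from it. Silencing rests on a single hairpin line, so an effect of that hairpin on other genes cannot be told apart from loss of Hnf4.

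Peroxisomes shorten fatty acids that mitochondria handle poorly, above all very long and branched chains. An acyl-CoA oxidase starts each round and releases hydrogen peroxide, an enzyme of the Mfe2 type then hydrates and oxidizes the intermediate, and a thiolase such as ScpX cuts off the shortened chain. In mammals the Amacr enzyme turns branched chains into the mirror form that the oxidases accept, and the Hacl enzyme splits 2-hydroxyacyl chains in alpha-oxidation. Hnf4 is a nuclear receptor known in flies and mammals for its role in lipid metabolism.

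The libraries held 44546248 to 83418453 counts. Levels are given as CPM, counts per 1000000 counts after TMM scaling, in which library totals are corrected for differences in composition. Hnf4 itself was at 92.9, 92.9, 88.0 and 94.0 CPM in control and 45.7, 48.7, 50.6 and 48.5 CPM in Hnf4i midguts on day 3. On day 4 it was at 126, 124, 134 and 126 CPM in control and 67.4, 58.8, 63.8 and 68.3 CPM in Hnf4i midguts, so 52.6 and 50.6% of the control level was left on the respective days. These are levels in whole midguts, while the hairpin was driven in ECs. The share left in ECs alone was not measured. The summed level of 6 EC markers ran from 8935 to 10693 CPM in control and from 9986 to 13154 CPM in Hnf4i libraries on day 4. Much of this sum was Jon65Aiii, a digestive protease gene, and 1 of the 6 markers, the amylase gene Amy-p, was lower in Hnf4i midguts on day 4 (66.9% of control). Fat body transcripts stood out in single day 4 libraries. Lsp1beta, a larval serum protein gene of the fat body, was above 10 CPM in control replicate 3 (29.0 CPM) and in Hnf4i replicates 1, 2 and 4 (387, 291 and 1000 CPM), and the summed level of the 7 fat body markers ran from 23.3 to 141 CPM in control and from 12.8 to 2823 CPM in Hnf4i midguts. All 6 fat body markers that could be tested were higher in Hnf4i midguts on day 4, beside 5.46% of all genes tested. Results of day 4 are therefore also given without these 4 libraries, which leaves Hnf4i replicate 3 alone in its group. On day 3 the fat body sum ran from 11.7 to 15.7 CPM in control and from 18.1 to 41.6 CPM in Hnf4i midguts, without overlap. Its member apolpp had means of 4.18 and 21.6 CPM there, with overlapping libraries. By the test used below, 0 of the 6 tested markers were higher on day 3, beside 1.51% of all genes. The part of fat body in the day 3 values was not tested. In midgut RNA, fewer cells of a type and less RNA per cell cannot be told apart.

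The genes lie on 3 chromosomes (positions in BDGP6). Acox57D-p (FBgn0034628, 2R, 21386309 to 21389276) and Acox57D-d (FBgn0034629, 2R, 21389405 to 21392439) are neighbours on the same strand with 128 bases between them, and their names mark the proximal and the distal gene. ScpX (FBgn0015808, 2L, 18831229 to 18833630) starts 75 bases from CG17597, which runs in the opposite direction. CG17544 (FBgn0032775, 19390370 to 19398493) and Amacr (FBgn0032881, 20750934 to 20752341) also lie on 2L, Hacl (FBgn0034488, 20242752 to 20245388) on 2R and Mfe2 (FBgn0030731, 16270951 to 16273815) on X. Exons of a gene on the opposite strand cover 6.15% of the exon bases of Hacl, 1.69% of those of Acox57D-d and 0.599% of those of Amacr. The strand setting of the counting is not given in the sources used here, so reads from these stretches may belong to either gene. How reads shared by related genes were counted is not given either.

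To compare genes with each other, counts were divided by exon length and by the sum of such values over all genes, and are given per 1000000 (TPM). On this scale, in control midguts on day 3, Hacl (604) and Mfe2 (455) led, followed by ScpX (188). Acox57D-p (86.3) and Acox57D-d (80.6) did not differ beyond their spread, and Amacr (31.2) and CG17544 (5.33) came last. On day 4 in control midguts, Mfe2 (781) stood above Hacl (696), ScpX had come up to 472, and Acox57D-p (225) was clear of Acox57D-d (112). The order changed under silencing. In Hnf4i midguts on day 4, Mfe2 (220.3) led, while ScpX (127), Hacl (114.8) and Acox57D-p (114) overlapped between neighbours, and CG17544 (9.52) stood above Amacr (4.37) without overlap. Hacl thus went from the highest of the 7 per length in control midguts on day 3 to a level shared with ScpX and Acox57D-p in Hnf4i midguts on day 4.

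Control midguts were first compared between the days, to ask what happens to peroxisomal oxidation as larvae pass from L2 to L3. In this and the later comparisons a gene was called when its adjusted p was under 0.05 and its log2 fold change at least 0.5 in size. Of the 7 genes, 6 rose, where 17.0% of the 9801 genes tested rose and 22.2% fell. The log2 fold change was 1.77 for Acox57D-p, 1.71 for ScpX, 1.17 for Mfe2, 0.86 for Acox57D-d, 0.59 for Hacl and 0.51 for Amacr. CG17544 changed by 0.27 (adjusted p = 0.0242), under the fold minimum. The median over the 7 genes was 0.86, against 0.01 over all genes tested. The calls for Hacl and Amacr depended on the scaling, as library totals alone gave 0.29 (adjusted p = 0.0579) and 0.21 (adjusted p = 0.0731), and the value of CG17544 then became -0.03. Without control replicate 3 on day 3, or replicate 2 or 4 on day 4, Amacr was at 0.46, 0.47 and 0.49, also under the minimum.

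In Hnf4i midguts, 3 of the 7 genes rose between the days, beside 18.8% of all genes tested, while 23.9% of all genes fell. These were CG17544 (log2 fold change 1.27), ScpX (1.08) and Acox57D-p (1.05). Mfe2 was at 0.495 (adjusted p = 1.39e-04), just under the fold minimum, and passed it without Hnf4i replicate 3 on day 3 or replicate 1, 3 or 4 on day 4 (0.50 to 0.54). It was at 0.37 without Hnf4i replicate 2 on day 4, at 0.33 without the 4 libraries with fat body transcripts and at 0.23 under library totals. Amacr (0.19, adjusted p = 0.123), Acox57D-d (0.15, adjusted p = 0.362) and Hacl (-0.25, adjusted p = 0.0970) did not pass the test. Without Hnf4i replicate 2 on day 4 they were at 0.11, -0.07 and -0.46, and Hacl then had an adjusted p of 2.38e-05, with its change still under the fold minimum. Without the 4 libraries with fat body transcripts, Hacl fell by 0.58, with Hnf4i replicate 3 alone in its group on day 4. The comparisons share libraries, so their values are set side by side here and not as independent evidence of one another.

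Silencing Hnf4 was next compared with control on each day, to ask how far these transcripts depend on the receptor in ECs. On day 3, in L2, 5 of the 7 genes were lower in Hnf4i midguts, where 2.46% of all genes tested were lower and 1.51% higher. Amacr was reduced to 15% of its control level, Acox57D-d to 25.3%, Hacl to 27.6%, ScpX to 39.2% and Mfe2 to 42.2%. On day 4, in L3, 6 were lower, beside 6.71% of all genes, and 1 was higher, beside 5.46% of all genes. Amacr was then at 12.1% of control, Hacl and Acox57D-d each at 15.4%, ScpX at 25.3%, Mfe2 at 26.5% and Acox57D-p at 47.6%, while CG17544 was at 182%. The median log2 fold change of the 7 genes was -1.35 on day 3 and -1.98 on day 4, against 0.01 and 0.02 over all genes tested. Without the 4 libraries with fat body transcripts, Hnf4i replicate 3 stood alone in its group on day 4, so only the size of the changes is given. The log2 fold changes were then -3.24 for Amacr, -3.01 for Hacl, -2.98 for Acox57D-d, -2.17 for ScpX, -2.07 for Mfe2, -0.93 for Acox57D-p and 1.09 for CG17544.

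**Figure D1:**
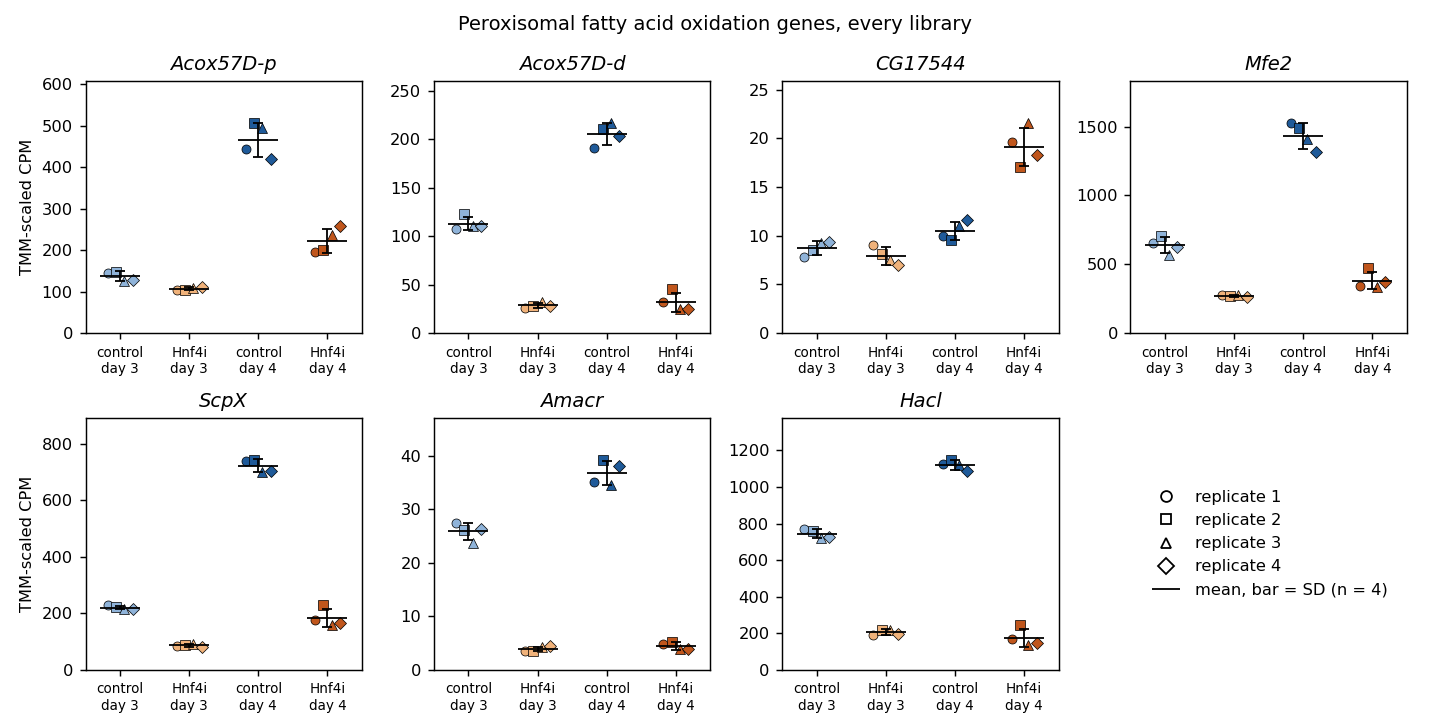
TMM-scaled CPM (y axis, linear from 0, own range for each gene) of the 7 genes in the 4 groups (x axis). Each symbol is a library, the line is the mean and the bar the SD (n = 4). In 5 panels all Hnf4i libraries of both days lie far below the controls of the same day. The 4 Hnf4i libraries of day 4 are the highest for CG17544, at 17.0 to 21.6 CPM.

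**Figure D2:**
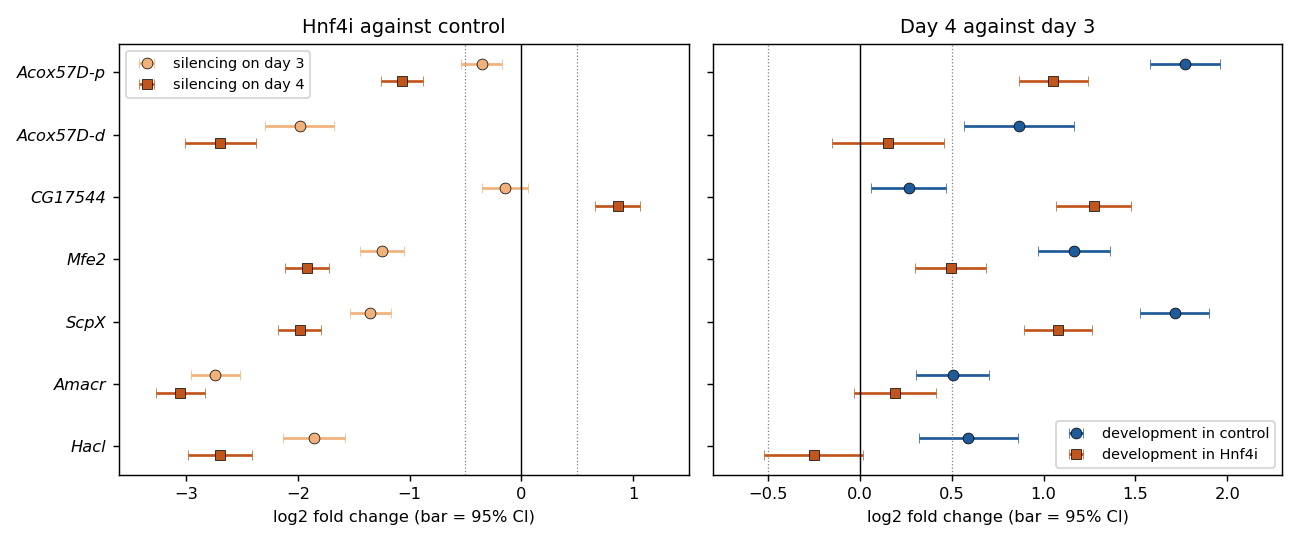
Log2 fold changes with 95% confidence intervals for Hnf4i against control on each day (left) and for day 4 against day 3 in each genotype (right). Dotted lines mark the fold minimum of 0.5. Amacr has the lowest silencing value on both days (-2.74 and -3.05), and CG17544 is the only gene to the right of the fold minimum on the left side, at 0.86 on day 4.

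Among the oxidases, Acox57D-d followed the silencing strongly. It was at 107, 123, 110.4 and 111 CPM in control and 25.6, 28.2, 32.3 and 27.9 CPM in Hnf4i midguts on day 3. On day 4 the control libraries had 191, 211, 217 and 204 CPM and the Hnf4i libraries 32.1, 45.4, 25.1 and 24.4 CPM. The groups were far apart on both days, and Hnf4i replicate 2 was the highest of its group on day 4. On the log2 scale silencing changed it by -1.98 in L2 (SE 0.15, adjusted p = 4.67e-08) and by -2.69 in L3 (SE 0.15, adjusted p = 6.70e-10).

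Its neighbour Acox57D-p responded far less. Acox57D-p was at 146, 148, 125 and 128 CPM in control and 104, 104, 109 and 112 CPM in Hnf4i midguts on day 3. The groups did not overlap, but the difference of -0.36 on the log2 scale (SE 0.09, adjusted p = 0.0149) was under the fold minimum. Among the alternative fits with edgeR or DESeq2, its adjusted p reached 0.0589. In L3 midguts the levels were 444, 506, 494 and 420.3 CPM in control and 196, 199, 235 and 258 CPM in Hnf4i, a change of -1.07 (SE 0.09, adjusted p = 8.76e-08). The Hnf4i libraries of day 4 lay above every control library of day 3, with a mean of 222 ± 29.6 CPM (SD, n = 4) against 137 ± 11.7 CPM.

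Because both genes are counted in the same library, their ratio does not depend on how libraries are scaled. The ratio of Acox57D-p to Acox57D-d counts was 1.36, 1.21, 1.14 and 1.155 in the control libraries of day 3 and 4.05, 3.68, 3.36 and 4.01 in the Hnf4i libraries of that day. The day 4 ratios were 2.32, 2.40, 2.28 and 2.06 in control and 6.11, 4.39, 9.36 and 10.6 in Hnf4i libraries. Every Hnf4i library of a day lay above every control library of that day, and the spread was widest in Hnf4i midguts on day 4. The ratio was 3.11-fold higher under silencing on day 3 (log2 difference 1.64, SE 0.09) and 3.17-fold higher on day 4 (1.66, SE 0.29). Between the days it rose 1.87-fold in control (0.90, SE 0.07) and 1.91-fold in Hnf4i midguts (0.93, SE 0.30). For each of these 4 comparisons the exact two-sided permutation test gave p = 0.0286 (adjusted over the 4, 0.0286), the smallest that 4 against 4 libraries can give. The 4 comparisons share libraries, and the ratio restates the levels of the same genes given above. These p-values are therefore not independent evidence.

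**Figure D3:**
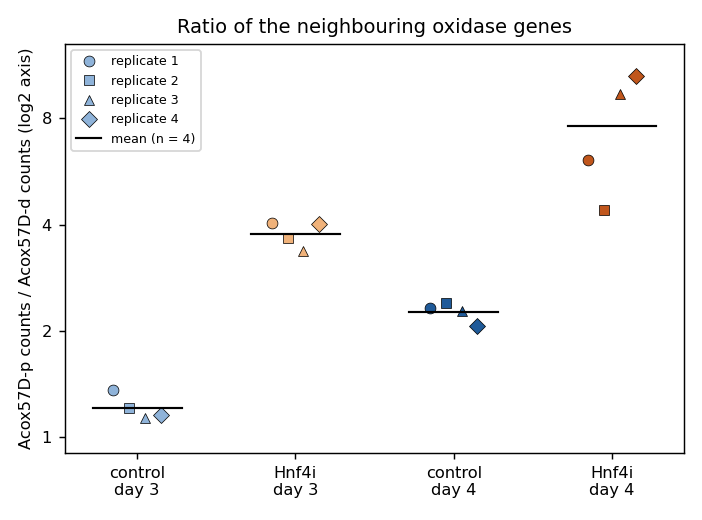
Ratio of Acox57D-p to Acox57D-d counts in each library (y axis, log2 scale) by group. Symbols are replicates and lines are means (n = 4). The means are 1.21 and 3.77 on day 3 and 2.27 and 7.60 on day 4 in control and Hnf4i midguts.

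CG17544, annotated as an acyl-CoA oxidase, did not fall under silencing. It was weakly expressed, at 7.86, 8.53, 9.25 and 9.31 CPM in control and 9.03, 8.16, 7.47 and 7.005 CPM in Hnf4i midguts on day 3. These groups overlapped, and the log2 fold change was -0.14 (95% confidence interval -0.35 to 0.06, adjusted p = 0.497). The L3 libraries had 9.98, 9.54, 10.96 and 11.6 CPM in control and 19.6, 17.0, 21.6 and 18.3 CPM in Hnf4i midguts. All Hnf4i libraries were above all control libraries, and the change was 0.86 (SE 0.10, adjusted p = 3.47e-06). Beside these Hnf4i levels of day 4, Lsp1beta was at 387, 291, 0.1296 and 1000 CPM in replicates 1 to 4, and a link between the 2 genes was not tested.

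Mfe2, which carries out the middle steps of the cycle, was abundant. On day 3 it was at 655, 704, 568 and 629 CPM in control and 274, 269.9, 275 and 259.7 CPM in Hnf4i midguts. On day 4 the control libraries had 1526, 1492, 1409 and 1314 CPM and the Hnf4i libraries 341, 470.0, 337 and 372 CPM. In each genotype the day 4 libraries lay above those of day 3 without overlap, at much lower levels under silencing. Between genotypes it differed by -1.25 in L2 (SE 0.09, adjusted p = 4.72e-08) and by -1.92 in L3 (SE 0.09, adjusted p = 1.37e-10) on the log2 scale.

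ScpX, the thiolase of the last step, rose 3.28-fold between the days in control and 2.11-fold in Hnf4i midguts. It was at 228, 224, 214 and 215 CPM in control and 84.03, 87.0, 92.1 and 82.0 CPM in Hnf4i midguts on day 3. On day 4 it reached 739.9, 743, 701 and 703 CPM in control but 176, 229.8, 158 and 166 CPM in Hnf4i midguts. The Hnf4i libraries of day 4 overlapped the control libraries of day 3, at 82.9% of their mean. Its silencing value on the log2 scale was -1.35 in L2 (SE 0.09, adjusted p = 9.57e-09) and -1.98 in L3 (SE 0.09, adjusted p = 5.14e-11).

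Of the 7 genes, Amacr kept the smallest share of its control level under silencing. It was at 27.5, 26.1, 23.7 and 26.3 CPM in control and 3.46, 3.52, 4.19 and 4.34 CPM in Hnf4i midguts on day 3. The day 4 libraries had 35.0, 39.2, 34.6 and 38.1 CPM in control and 4.80, 5.21, 3.89 and 3.84 CPM in Hnf4i midguts. The Hnf4i libraries of both days overlapped each other and were far below both control groups. Its silencing value was -2.74 in L2 (SE 0.10, adjusted p = 3.29e-11) and -3.05 in L3 (SE 0.10, adjusted p = 5.42e-12), which placed it 14th and 45th from the lowest of the 9801 genes tested.

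Hacl, a 2-hydroxyacyl-CoA lyase, was among the 2 most abundant of the 7 genes in both control groups. It was at 772, 761, 721 and 726 CPM in control and 189.7, 217, 220.1 and 195 CPM in Hnf4i midguts on day 3. In L3 the levels were 1126, 1149, 1121 and 1087 CPM in control and 168, 244, 137 and 144 CPM in Hnf4i midguts. The control libraries varied little (coefficient of variation 3.38 and 2.29%), while the Hnf4i libraries of day 4 varied by 28.3%. Silencing changed it by -1.86 in L2 (SE 0.13, adjusted p = 2.54e-08) and by -2.70 in L3 (SE 0.14, adjusted p = 1.59e-10) on the log2 scale.

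The silencing effect was then compared between the days, as the interaction of silencing and day. For 5 of the 7 genes the effect was more negative on day 4, beside 2.44% of all genes tested, and for 1 it was more positive, beside 2.59%. The difference was -0.84 for Hacl (adjusted p = 0.00742), -0.71 for Acox57D-p (adjusted p = 0.00149), -0.71 for Acox57D-d (adjusted p = 0.0366), -0.67 for Mfe2 (adjusted p = 0.00340) and -0.63 for ScpX (adjusted p = 0.00356). CG17544 moved the other way, by 1.01 (adjusted p = 2.19e-04). For Amacr the difference of -0.31 (95% confidence interval -0.61 to -0.01, adjusted p = 0.210) did not pass the test. The call for Acox57D-d was the weakest, and it was lost in 12 of the 16 fits that leave out a single library (adjusted p 0.0509 to 0.0767). These 12 were every fit without an Hnf4i library except replicate 1 on day 3 and replicate 2 on day 4, and every fit without a control library except replicate 2 on day 3 and replicate 1 on day 4.

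Within the Hnf4i group of day 4, the libraries ranked alike for several genes. Replicate 2 had the highest level of its group for Hacl, Amacr, Acox57D-d, Mfe2 and ScpX and the lowest for CG17544, and its Hnf4 level of 58.8 CPM was also the lowest of the group. Its Lsp1beta level of 291 CPM lay between those of replicates 3 and 1. It was also the only library of day 4 with counts of Uro (40.0 CPM) and Irk3 (3.85 CPM), markers of the Malpighian tubule, and their part in these levels was not tested. Leaving it out moved the day 4 silencing value to -2.91 for Hacl, -2.92 for Acox57D-d, -2.11 for ScpX, -2.04 for Mfe2 and -3.13 for Amacr.

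Set against the day 3 control, Hnf4i midguts on day 4 held 17.1% of the Amacr level, 23.2% of Hacl, 28.1% of Acox57D-d, 59.4% of Mfe2 and 82.9% of ScpX, but 162% of Acox57D-p and 219% of CG17544. These groups overlapped for ScpX and for none of the other 6 genes. The comparison is between different genotypes and ages and is given as a description.

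Of the other acyl-CoA oxidase genes, Acox3 and CG4586 put these levels in scale. Per length, Acox3 was higher than Acox57D-p, Acox57D-d and CG17544 in every group, at 649 in control midguts on day 3 and 639.7 on day 4. CG4586 was at 4.38 and 0.696. Levels per length are not corrected for composition between the days. In TMM-scaled CPM, Acox3 rose in control midguts from a mean of 1163 on day 3 to 1500 on day 4. By edgeR's test its log2 fold change was 0.37 (adjusted p = 0.00537), under the fold minimum. Acox3 fell under silencing by 0.62 on day 3 and 1.03 on day 4 on the log2 scale (adjusted p = 5.99e-04 and 1.15e-06). CG4586 did not pass the test on either day (0.01, adjusted p = 0.990, and 0.43, adjusted p = 0.352).

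**Figure D4:**
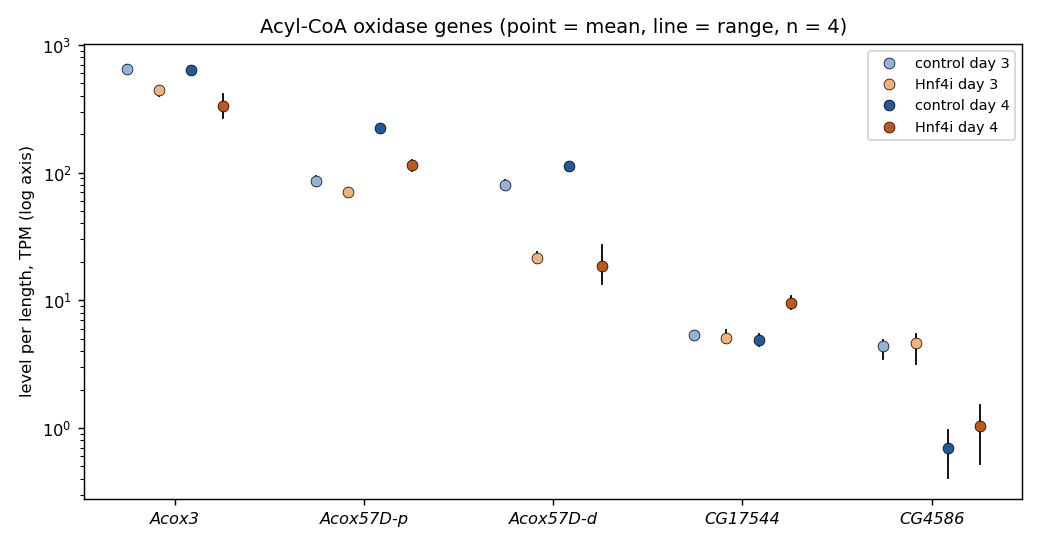
Level per length (TPM, y axis, log scale) of 5 acyl-CoA oxidase genes in the 4 groups. Points are means and lines run from the lowest to the highest library (n = 4). Acox3 lies highest in every group, and CG17544 is higher in Hnf4i midguts on day 4 (9.52) than in the other groups.

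Of 13 other genes of peroxisomal oxidation, also listed with earlier results known, 12 passed the count filter. Silencing lowered 7 of the 12 on day 3 and 11 on day 4, beside 2.46 and 6.71% of all genes tested, with a median log2 fold change of -0.65 and -0.74. The remaining gene on day 4 was CG4586, given with the oxidases. CG17597, the neighbour of ScpX, was at 16.9% of control on day 4 and CG9577, related to dienoyl-CoA isomerases, at 17.6%. Cat, the catalase that breaks down hydrogen peroxide, was at 39.9%, and Dci, an enoyl-CoA isomerase gene, at 49.9%. Between the days 7 of the 12 rose and 1 fell in control midguts, and 6 rose and 2 fell in Hnf4i midguts, where 17.0 and 22.2% of all genes rose and fell in control and 18.8 and 23.9% in Hnf4i midguts. The interaction was called lower for CG17597 (-0.75) and higher for CROT, a carnitine acyltransferase gene (0.78). CROT was at 32.2% of control on day 3 and 55.4% on day 4.

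Likeness of pattern was measured by Pearson's r of log2 CPM over the 16 libraries, which share their 4 groups, so r mostly reflects the group means. Among the 7 genes, Hacl, Amacr and Acox57D-d ran closest together (r 0.98 to 0.99), as did Mfe2 and ScpX (0.97). Acox57D-p was closest to ScpX (0.90) and at 0.61 with Acox57D-d, and CG17544 had no r above 0.38 with any of the others. Of 5979 other genes with at least 10 CPM in a group, the closest were Dhrs4, CG11151 and CG12375 for Hacl (r 0.995 to 0.997), and Mtpbeta, CPT2 and Hsdl2 for Amacr (each about 0.995). Mtpbeta and CPT2 encode enzymes of mitochondrial fatty acid oxidation. For Acox57D-d they were CG6178, CG9577 and CG11151 (0.994 to 0.995), and for Acox57D-p crq, GstD10 and Srx (0.987 to 0.990). For Mfe2 they were CG17597, CG3603 and CG3635 (0.988 to 0.997), for ScpX Pex13 and Got1 (0.993 to 0.995), and for CG17544 Rhp, Whamy and Akap200 (0.961 to 0.965). Pex13 encodes a protein of the peroxisomal import machinery.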

How the data were processed

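Per the labels, the authors inspected reads with FastQC 0.11.7 and MultiQC 1.12, trimmed them with Trimmomatic 0.39, aligned them with STAR 2.7.10b to BDGP6 and compared groups with DESeq2 1.49.3 in R 4.5.1. The libraries came from a stranded poly-A kit. The software listed by the study includes Salmon, a quantification tool, but not for which of its data, and the tool that counted these reads, its strand setting and its gene models are not stated in the sources used here. Raw counts per gene were deposited by the authors, with CPM that differed from counts divided by library totals by at most 4.91e-11. Columns of the authors' own comparisons (log2 fold changes, p-values) were not used. Of 24254 rows, 6381 are not genes (0.0365 to 0.0489% of counts) and were left out.

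The fit used edgeR 4.0.16 in R 4.3.3, with filterByExpr (minimum count 10, minimum total 15, 9801 genes kept), TMM scaling, and 1 quasi-likelihood model of the 4 group means. Adjusted p is Benjamini-Hochberg over all genes tested (two-sided). SE is the standard error on the log2 scale. For edgeR it was derived as the size of the log2 fold change divided by the square root of the test's F statistic. The 95% confidence intervals were built from this value. For the oxidase ratio, SE came from the variances of the groups compared. The Acox57D-p to Acox57D-d ratio was tested by exact permutation in 4 comparisons. Levels per length used exon lengths of an Ensembl annotation of BDGP6. The fit was tested on simulated data. Alternatives were DESeq2 1.42.0, RLE size factors, library totals, no count filter, only the groups compared, a replicate block, each library left out, and the libraries over 10 CPM of Lsp1beta left out.

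The 7 genes and the other lists (70 of 71 symbols matched) were chosen with earlier results of these data known. By rule, the text names all 7 genes, Hnf4, up to 6 other peroxisomal genes by size of the day 4 silencing change plus the other oxidases, and the 3 genes closest to each of the 7. A gene that this rule also names is not reported here. Of the marker lists, those of enterocytes and fat body stand in the report, the others in the last section.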

Additional observations from a re-analysis of the deposited data

Results flagged for a closer look

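For 6 of the 7 genes the silencing effect differed between the days by the interaction term of edgeR's quasi-likelihood test. The effect on day 4 minus that on day 3, on the log2 scale, was -0.84 for Hacl (adjusted p = 0.00742), -0.71 for Acox57D-p (adjusted p = 0.00149), -0.71 for Acox57D-d (adjusted p = 0.0366), -0.67 for Mfe2 (adjusted p = 0.00340), -0.63 for ScpX (adjusted p = 0.00356) and 1.01 for CG17544 (adjusted p = 2.19e-04). The days also differ in the number of midguts pooled, and fat body transcripts are high in 3 of the 4 Hnf4i libraries of day 4. The paper reported less body growth after entry into L3 and a later metamorphosis under this silencing. The part of growth or timing in the values of day 4 was not tested. Without the 4 libraries with fat body transcripts the differences were -1.15, -0.57, -0.99, -0.82, -0.82 and 1.23 in the same order. These values rest on Hnf4i replicate 3 alone in its group on day 4. Taken 1 gene at a time, no library stood apart from its group by Dixon's test in the 32 groups checked (the 7 genes and Hnf4 in 4 groups), where chance flags about 5% of groups. With 4 libraries per group this test has little power. It also cannot see a library that is extreme for several genes, as Hnf4i replicate 2 was on day 4.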

How the results depend on the processing

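Over all alternatives no value of a called gene changed sign. Most counts of called genes stayed within 1.5 times. Between the days in Hnf4i midguts, edgeR and DESeq2 called 0 of the 7 genes lower (0 also at an unadjusted p under 0.05 in edgeR), and 1, Hacl, was under library totals only (-0.51). Without the libraries over 10 CPM of Lsp1beta, Hacl was at -0.58, from a single Hnf4i library of day 4. Library totals only, which shift the median of all genes by -0.29 and -0.28 between the days and by 0.08 and 0.12 under silencing on days 3 and 4, changed 4 of 35 calls (4 genes in place of 6 higher between the days in control and 4 in place of 5 lower in the interaction): that of Hacl, the losses of Hacl (0.29) and Amacr (0.21) between the days in control midguts, and the loss of the interaction of Acox57D-d (-0.67, adjusted p = 0.0545). Over all genes they gave 901 higher and 3361 lower calls in place of 1668 and 2176 between the days in control, 1116 and 3347 in place of 1842 and 2339 in Hnf4i midguts, 213 and 212 in place of 148 and 241 under silencing on day 3, and 763 and 517 in place of 535 and 658 on day 4. The fit without the libraries over 10 CPM of Lsp1beta left a single Hnf4i library on day 4, so its counts over all genes are not given. DESeq2 and RLE size factors each put Mfe2 past the fold minimum between the days in Hnf4i midguts (0.51), and a fit of only the groups compared lost Amacr between the days in control midguts (0.47). Omitting the count filter changed 0 of 35 calls. Leaving out a library in turn left 5 genes lower on day 3 and 6 lower and 1 higher on day 4 under silencing, 5 to 6 higher between the days in control, 3 to 4 in Hnf4i midguts, and 4 to 5 lower in the interaction. The log2 difference of the oxidase ratio then ran from 1.60 to 1.69 on day 3 and from 1.48 to 1.90 on day 4. Where a single library of a group was left, it was assumed to vary like the others. Whether the replicate numbers pair the samples could not be decided. Of 24 pairs of groups and numbers, 7 correlated above 0.1 (r -0.38 to 0.57). For libraries of different groups with different numbers, r ran from -0.54 to 0.48, a similar range. Between genotypes on the same day, r for replicates 1 to 4 was 0.57, -0.33, 0.45 and 0.03 on day 3. On day 4 it was 0.12, 0.25, 0.40 and 0.004. A fit with the replicate number as a block changed 0 of 35 calls, with 5 genes lower on day 3 and 6 on day 4 under silencing. A log2 fold change near 0.5, as for Amacr and Mfe2, could not be placed on either side of the minimum with 4 replicates.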

Other observations

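Markers of other tissues are given by their summed level in the libraries of day 4, in control and then in Hnf4i midguts. The summed level of 6 visceral muscle markers was 4486 to 5082 CPM in control and 2755 to 4092 CPM in Hnf4i midguts on day 4, and that of 5 hemocyte markers was 404 to 427 CPM and 237 to 271 CPM. The hemocyte sum was nearly all crq (395 to 418 CPM and 231 to 264 CPM), while NimC1 was higher in Hnf4i midguts (log2 fold change 1.98, adjusted p = 8.51e-04). The 4 progenitor markers summed to 15.1 to 18.6 CPM and 13.6 to 17.3 CPM, the 8 enteroendocrine markers to 206 to 221 CPM and 191 to 229 CPM, and the 4 neuron markers to 12.1 to 14.99 CPM and 12.3 to 14.3 CPM. The 3 oenocyte markers were at 0.925 to 2.08 CPM and 0.627 to 1.32 CPM, and the 4 salivary gland markers at 0 to 0.112 CPM and 0 to 0.960 CPM. The 3 Malpighian tubule markers reached 0.320 CPM in control libraries of day 4, and 44.8 CPM in Hnf4i replicate 2 of that day. The part of these tissues in the levels of the 7 genes was not tested.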
